A study of Homo sapiens with 18 samples.

Results

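The genes described here carry cytidine analogue drugs into a cell, activate them by phosphorylation and break them down. They were chosen by name, as the rows whose gene symbol is DCK, CDA, SAMHD1, SLC29A1, SLC29A2, CMPK1, DCTD, DCTPP1, NME1 or TYMS. All 10 were listed for MOLM-13 and 9 for HL-60, out of 19068 genes listed for either line. RNA from both acute myeloid leukaemia cell lines was measured by stranded total RNA sequencing after 48 h (day 2) with dimethyl sulfoxide (DMSO, the solvent), with decitabine (DAC) or with NTX-301, in 6 groups of 3 replicates. HL-60 is an established promyelocytic line and MOLM-13 an established monocytic line, both grown in RPMI1640 with fetal bovine serum, and the labels name no further agent and no engineered allele in any group. HL-60 was exposed at 30 nM and MOLM-13 at 15 nM as stated. The labels do not say whether these values hold for both drugs or for DAC alone, so concentration cannot be told apart from line, and possibly not from drug. Each disease model is thus a single established line. The labels name triplicate wells and do not say that these came from separate cultures, so the p-values measure the spread between these samples, which may be technical.

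DAC is a deoxycytidine analogue that acts after it has been built into DNA, where it traps DNA methyltransferases. NTX-301 is known here by its code name and is described as an inhibitor of the same enzymes. A deoxycytidine analogue enters mainly through equilibrative nucleoside transporters, is phosphorylated to the monophosphate by deoxycytidine kinase, and passes through a monophosphate kinase and a diphosphate kinase to the triphosphate that polymerases use. Cytidine deaminase and deoxycytidylate deaminase convert cytosine nucleosides and nucleotides to uracil forms, and triphosphate hydrolases such as SAMHD1 take the active form apart. In myeloid leukaemia the balance of deoxycytidine kinase against cytidine deaminase and SAMHD1 is a known correlate of sensitivity to such drugs.

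Levels are the log2 normalized values that the authors deposited, and every difference is a difference on that scale. The method of normalization is not given in the sources used here, and the read depth is unknown, so no interval from counts is given. Low genes varied less between samples: the distance from lowest to highest of a line's 9 values had a median of 0.021 in HL-60 and 0.027 in MOLM-13 for genes averaging under 3, and 0.234 and 0.289 for those averaging 8 to 10, so differences of low genes may be compressed. The lines appear to have been normalized apart (HL-60 with 17110 listed genes, MOLM-13 with 17475). Levels are not per unit of transcript length, so they are not compared between genes. A gene was called when limma's moderated test gave an adjusted p under 0.05 (Benjamini-Hochberg over the 17046 genes tested in HL-60 or the 17475 in MOLM-13). Replicates lay close together: the SD of a group of 3 ran from 0.0042 to 0.086 over the members in HL-60 (median 0.034) and from 0.0079 to 0.116 in MOLM-13 (median 0.038). All 8 myeloid markers checked were listed in both lines, while of 8 markers of other cell types 7 were not listed in HL-60 and 5 in MOLM-13. The exceptions were PECAM1, a marker of endothelial and also of myeloid cells, in both lines, and COL1A1 and HBB in MOLM-13. PECAM1 was called higher with both drugs in both lines (0.14 and 0.35 in HL-60, 0.24 and 0.13 in MOLM-13 with DAC and NTX-301) and COL1A1 in MOLM-13 (0.17 and 0.22), while HBB was not called; PECAM1 with DAC in HL-60 was lost after quantile normalization (0.10). The log2 of the summed linear level of these markers ran in HL-60 from 8.41 to 8.45 in DMSO, 8.55 to 8.58 with DAC and 8.73 to 8.83 with NTX-301, and in MOLM-13 from 13.06 to 13.11, 13.30 to 13.34 and 13.17 to 13.30. Their part in the members' results was not tested. In bulk RNA, fewer cells of a type and less RNA per cell cannot be told apart.

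The promoters of the members differed in CpG content, the substrate of the enzymes these drugs trap, and 3 are printed. They are that of CDA, with the fewest CpG pairs, and those of SAMHD1 and TYMS, which rose with a drug. CMPK1 also rose with a drug, and its promoter is not printed. RefSeq's promoter table (GRCh38.p14) held 9 of the 10 members. DNA methylation was not measured in these samples. Each line gives the 250 bases before the start of transcription, 5′ to 3′ on the strand of the gene, with CpG pairs in capitals.

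SAMHD1, chr20:36951709-36951958, minus strand: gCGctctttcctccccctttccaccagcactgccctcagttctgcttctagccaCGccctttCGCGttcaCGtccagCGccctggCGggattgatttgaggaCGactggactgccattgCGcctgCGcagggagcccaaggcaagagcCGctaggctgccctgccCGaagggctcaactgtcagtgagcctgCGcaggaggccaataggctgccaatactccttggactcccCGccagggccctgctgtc

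CDA, chr1:20588847-20589096, plus strand: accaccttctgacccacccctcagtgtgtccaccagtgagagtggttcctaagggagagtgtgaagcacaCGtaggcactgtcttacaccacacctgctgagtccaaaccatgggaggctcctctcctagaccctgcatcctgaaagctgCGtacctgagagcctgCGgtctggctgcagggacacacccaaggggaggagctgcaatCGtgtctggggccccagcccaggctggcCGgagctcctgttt

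TYMS, chr18:657403-657652, plus strand: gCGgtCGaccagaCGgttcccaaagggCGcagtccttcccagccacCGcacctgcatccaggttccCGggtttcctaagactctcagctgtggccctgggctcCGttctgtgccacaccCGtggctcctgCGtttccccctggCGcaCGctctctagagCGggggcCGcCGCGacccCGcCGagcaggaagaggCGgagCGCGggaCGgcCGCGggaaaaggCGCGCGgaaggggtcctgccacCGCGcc

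SAMHD1 held 14 CpG pairs in these bases, CDA 5 and TYMS 28. DCK held the most among the members at 31, followed after TYMS by DCTD at 23, DCTPP1 at 22, SLC29A1 at 19, and CMPK1 and NME1 at 16 each. Over 35116 promoter windows the median was 11 CpG pairs, and the 10th to 90th percentile ran from 1 to 31, so CDA was the only member with an entry that lay below the median. Words of the E2F type (TTTCCCGC, TTTCGCGC, TTTGCCGC or TTTGGCGC, either strand, in the window from 250 bases before to 50 after the start) were present in DCK, CDA and TYMS, and in 3.31% of all windows. The CCAAT word was present in SAMHD1 and NME1 (34.6% of all windows), and the GC box GGGCGG in DCK, SLC29A1, DCTD and DCTPP1 (45.0%), on either strand. SAMHD1 held CCAAT 2 times. These matches describe letters only, and binding was not measured.

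In HL-60 the members moved little and in both directions. With DAC, TYMS and CMPK1 rose and no member fell. With NTX-301, TYMS rose further, and DCTPP1 and SLC29A2 fell. Called members were thus 2 of 9 with DAC, where 24.2% of all genes tested were called, and 3 of 9 with NTX-301, where 37.4% were called. The median difference of the 9 members was 0.00014 with DAC and -0.06 with NTX-301. The median of all genes was near 0 in both comparisons (0.00064 and 0.00082). All members but CDA lie in the upper part of the range, so the rates among genes averaging 10 or more on the log2 scale, a limit set after the values were seen, were also taken: 13.9% higher and 21.7% lower with DAC, and 19% higher and 33.7% lower with NTX-301. The members' counts do not stand out from these rates. Groups did not overlap for 4 of 9 members with DAC (38.5% of all genes) and for 5 of 9 with NTX-301 (47.2%). When samples were centred on their medians, calls over all genes with NTX-301 went from 3115 higher and 3265 lower to 2310 and 5400, and this added SAMHD1, CMPK1 and NME1 to the members called lower.

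In MOLM-13 most called members fell. With DAC, DCK, DCTD, NME1 and DCTPP1 fell and SAMHD1 rose, so that 5 of 10 members were called where 36.6% of all genes were. With NTX-301, DCTPP1, NME1, DCK, SLC29A1, CMPK1 and SLC29A2 fell and none rose, 6 of 10 members where 45.1% of all genes were called. Falls were common among well-expressed genes of this line: 39.9% of genes averaging 10 or more fell with DAC and 45.9% with NTX-301, so the 4 falls with DAC sit at the background and the 6 with NTX-301 little above it. The median difference of the 10 members was -0.06 with DAC, equal to the -0.06 of genes averaging 10 or more, and -0.16 with NTX-301 against -0.07. Groups did not overlap for 7 of 10 members with either drug, against 47.9% of all genes with DAC and 55.8% with NTX-301. With centred samples the balance over all genes moved from 2689 higher and 3705 lower to 1960 and 5731 for DAC, and from 3543 higher and 4337 lower to 2735 and 5760 for NTX-301, and TYMS (DAC) and DCTD (NTX-301, -0.10) joined the members called lower.

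**Figure D1:**
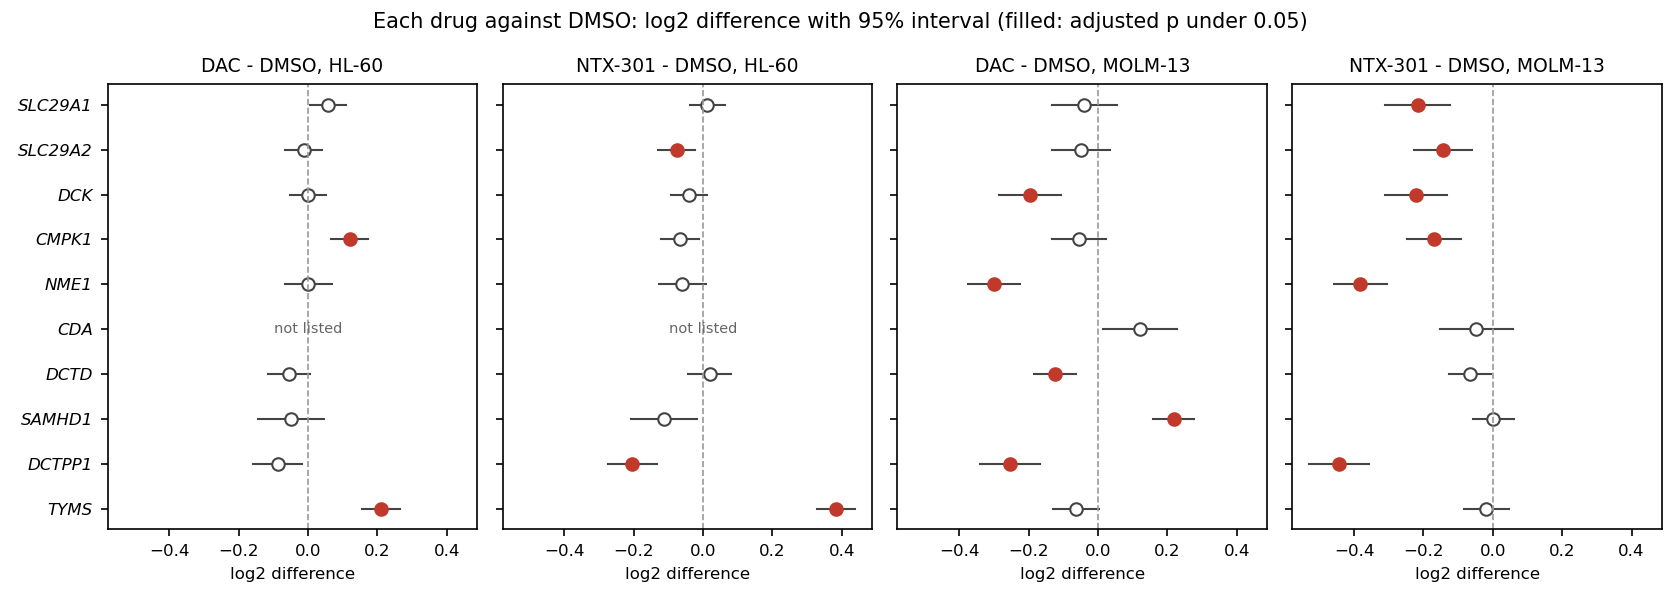
Log2 difference of each drug from DMSO for the 10 members in HL-60 and MOLM-13 (horizontal axis, log2 units; 1 row per gene in order of role). Points are limma estimates from 3 replicates a group, bars are 95% confidence intervals, and filled points passed an adjusted p of 0.05; TYMS stands to the right in HL-60 (0.21 with DAC and 0.38 with NTX-301), while DCTPP1 and NME1 stand farthest to the left in MOLM-13 (-0.44 and -0.38 with NTX-301).

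Both nucleoside transporters fell with NTX-301 in MOLM-13. SLC29A1 (NCBI Gene 2030) encodes ENT1, the main equilibrative transporter of nucleosides at the cell surface. In MOLM-13 it read 12.15, 12.03 and 12.10 in DMSO, 11.98, 12.13 and 12.05 with DAC, and 11.92, 11.82 and 11.88 with NTX-301. The NTX-301 samples lay below all others, and the DAC samples overlapped DMSO. The difference from DMSO was -0.22 ± 0.043 (SE, n = 3 per group, limma adjusted p = 0.0016) with NTX-301, and -0.04 with DAC, which did not pass (adjusted p = 0.52). In HL-60 SLC29A1 read 12.72, 12.78 and 12.78 in DMSO, 12.78, 12.83 and 12.83 with DAC, and 12.77, 12.78 and 12.76 with NTX-301. The DAC samples lay just above DMSO there without passing the test (difference 0.06, adjusted p = 0.095), and the NTX-301 samples overlapped DMSO (0.01, 95% confidence interval -0.04 to 0.06).

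SLC29A2 (NCBI Gene 3177) encodes ENT2, a second equilibrative carrier with a wider choice of nucleobases. Its MOLM-13 values were 10.83, 10.76 and 10.78 in DMSO, 10.73, 10.73 and 10.76 with DAC, and 10.57, 10.70 and 10.66 with NTX-301. Again the NTX-301 samples were the lowest of the 9, with a difference from DMSO of -0.14 ± 0.038 (SE, limma adjusted p = 0.0088). In HL-60 the values were 12.13, 12.13 and 12.19 in DMSO, 12.15, 12.14 and 12.12 with DAC, and 12.06, 12.11 and 12.05 with NTX-301. The difference with NTX-301 there was -0.08 (limma adjusted p = 0.028), a call that was lost after quantile normalization (-0.05) and without DMSO replicate 3 (-0.06), NTX-301 replicate 1 (-0.07) or NTX-301 replicate 3 (-0.07). The difference with DAC did not pass in either line (-0.01 in HL-60, -0.05 in MOLM-13).

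**Figure D2:**
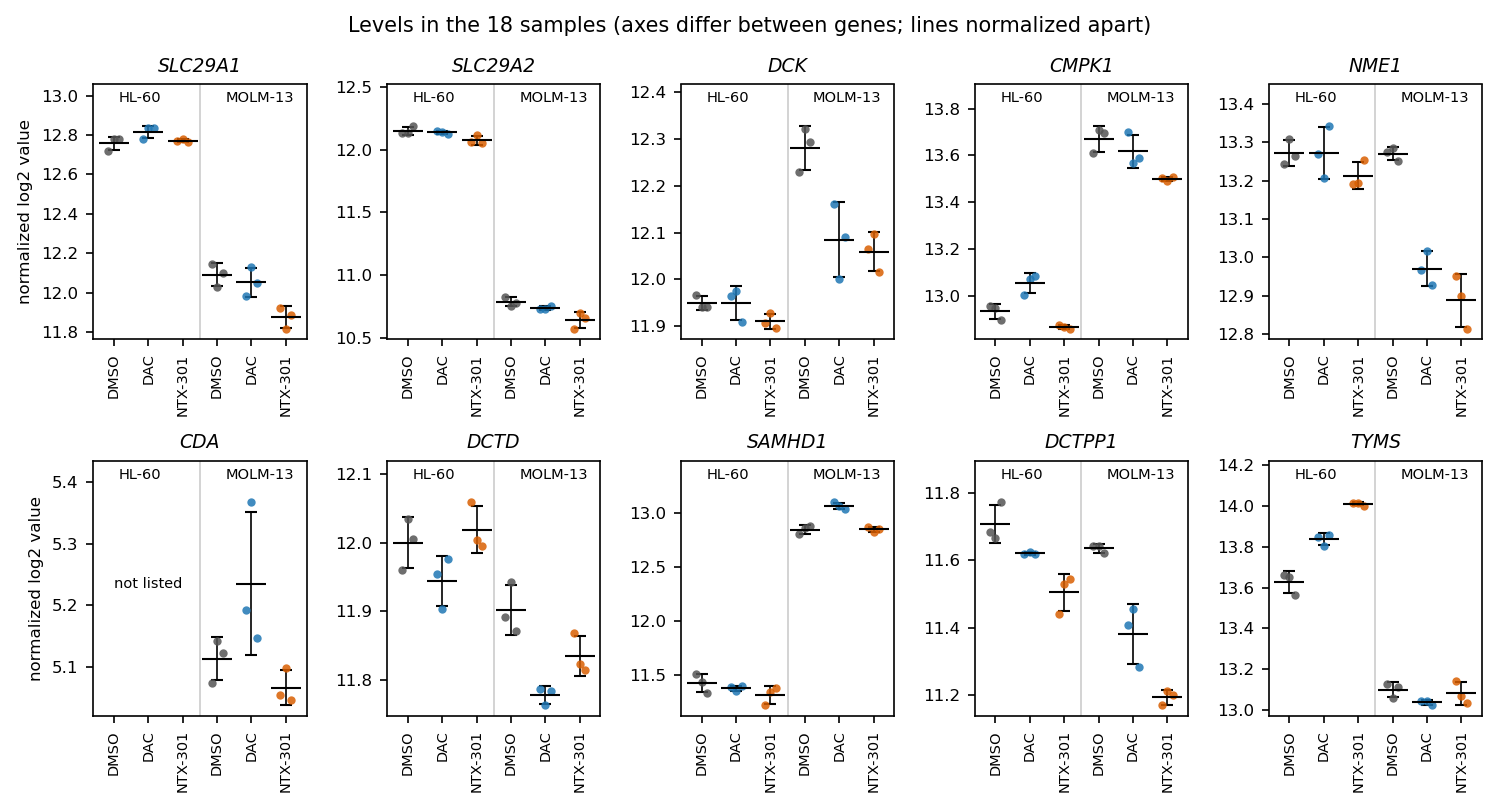
Deposited log2 value of each member in the 18 samples (vertical axes, normalized log2 value, which differ between panels), with HL-60 to the left and MOLM-13 to the right of the grey line. Points are replicates, and bars are the mean and SD of 3; CDA was not listed for HL-60, the 3 DAC samples of MOLM-13 hold the highest SAMHD1 values (13.03 to 13.09), and the 3 NTX-301 samples of HL-60 the highest TYMS values (14.002 to 14.015).

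Deoxycytidine kinase fell in MOLM-13 with both drugs and was not called in HL-60. DCK (NCBI Gene 1633) adds the first phosphate to deoxycytidine and its analogues, the step that commits them to the cell. In MOLM-13 it read 12.23, 12.32 and 12.29 in DMSO, 12.16, 12.00 and 12.09 with DAC, and 12.07, 12.10 and 12.02 with NTX-301. No treated sample reached the lowest DMSO sample. It fell by 12.7% on the deposited scale with DAC (log2 difference -0.20 ± 0.041 SE, limma adjusted p = 0.0027) and fell by 14.3% with NTX-301 (-0.22 ± 0.041, limma adjusted p = 0.00089). In HL-60 it read 11.97, 11.94 and 11.94 in DMSO, 11.96, 11.98 and 11.91 with DAC, and 11.91, 11.93 and 11.90 with NTX-301. The DAC difference there was 0.00014 with a 95% confidence interval of -0.05 to 0.05, and the NTX-301 samples lay below DMSO by -0.04 without passing the test (adjusted p = 0.23). Exons of DCK and MOB1B overlap on the same strand in the GENCODE 29 annotation, and how reads there were counted is not given in the sources used here.

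The monophosphate kinase CMPK1 (NCBI Gene 51727), which phosphorylates UMP, CMP and deoxycytidine monophosphate, lay on opposite sides of DMSO with the drugs in HL-60. It read 12.96, 12.95 and 12.90 in DMSO, 13.01, 13.08 and 13.09 with DAC, and 12.88, 12.87 and 12.86 with NTX-301. All DAC samples lay above and all NTX-301 samples below DMSO. The rise with DAC was 0.12 ± 0.025 (SE, limma adjusted p = 0.0034), while the difference of -0.07 with NTX-301 missed the threshold (adjusted p = 0.051). In MOLM-13 the values were 13.61, 13.71 and 13.70 in DMSO, 13.70, 13.57 and 13.59 with DAC, and 13.50, 13.49 and 13.51 with NTX-301. The NTX-301 samples were the lowest there, with a difference of -0.17 ± 0.036 (SE, limma adjusted p = 0.0022), which fell to -0.05 and was no longer called after quantile normalization.

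NME1 (NCBI Gene 4830) encodes a subunit of nucleoside diphosphate kinase, the enzyme that makes triphosphates. It fell in MOLM-13 with both drugs, from 13.27, 13.28 and 13.25 in DMSO to 12.97, 13.02 and 12.93 with DAC and to 12.95, 12.90 and 12.81 with NTX-301. The treated groups both lay below DMSO and overlapped each other. The differences were -0.30 ± 0.035 (SE, limma adjusted p = 5.8e-05) with DAC and -0.38 ± 0.035 (limma adjusted p = 6.7e-06) with NTX-301, so that NME1 fell by 18.7% and fell by 23.3% on the deposited scale. In HL-60 the groups overlapped, with 13.24, 13.31 and 13.26 in DMSO, 13.27, 13.21 and 13.34 with DAC, and 13.19, 13.19 and 13.25 with NTX-301. NME1 is reported with doubt, since its exons are shared with the readthrough gene NME1-NME2 and its sequence resembles NME2. In MOLM-13 NME1-NME2 fell by 0.21 with DAC and by 0.30 with NTX-301, and NME2, the other main subunit, by 0.11 and 0.13, all called. After quantile normalization NME2 (-0.02 with each drug) and, with DAC, NME1-NME2 (-0.14) no longer passed.

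Cytidine deaminase was low in MOLM-13 and not listed for HL-60. CDA (NCBI Gene 978) deaminates cytidine, deoxycytidine and DAC, and so inactivates the drug. Its MOLM-13 values were 5.08, 5.14 and 5.12 in DMSO, 5.19, 5.37 and 5.15 with DAC, and 5.05, 5.10 and 5.05 with NTX-301. The DAC samples lay above all DMSO samples, 1 of them well above, and the NTX-301 samples overlapped DMSO. The difference with DAC was 0.12 ± 0.049 (SE) and did not pass (limma adjusted p = 0.071); it was called without DAC replicate 3 (0.17) and when only genes averaging 5 or more were tested. CDA was the lowest member, and genes averaging 5 to 6 had a median distance of 0.184 from the lowest to the highest of the 9 MOLM-13 values.

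DCTD (NCBI Gene 1635) encodes deoxycytidylate deaminase, which turns deoxycytidine monophosphate into deoxyuridine monophosphate. In MOLM-13 it read 11.89, 11.94 and 11.87 in DMSO, 11.79, 11.76 and 11.78 with DAC, and 11.87, 11.82 and 11.81 with NTX-301. The DAC samples were the lowest, at -0.12 ± 0.028 from DMSO (SE, limma adjusted p = 0.0044), and the NTX-301 difference of -0.07 did not pass (adjusted p = 0.069). In HL-60 DCTD read 11.96, 12.03 and 12.01 in DMSO, 11.95, 11.90 and 11.98 with DAC, and 12.06, 12.00 and 11.99 with NTX-301, with no call against DMSO.

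SAMHD1 was the only member that rose in MOLM-13, and it rose with DAC. SAMHD1 (NCBI Gene 25939) is a triphosphohydrolase that degrades deoxynucleoside triphosphates, the active forms of several cytidine analogues among them. It read 12.80, 12.86 and 12.87 in DMSO, 13.09, 13.06 and 13.03 with DAC, and 12.87, 12.82 and 12.84 with NTX-301. The DAC samples stood above all 6 others, and the NTX-301 samples lay within the range of DMSO. The rise with DAC was 16.4% on the deposited scale (log2 difference 0.22 ± 0.027 SE, limma adjusted p = 9.2e-05). With NTX-301 the difference was 0.0015, with a 95% confidence interval of -0.06 to 0.06, and it was called only after quantile normalization (0.10). In HL-60 SAMHD1 read 11.51, 11.44 and 11.34 in DMSO, 11.39, 11.35 and 11.40 with DAC, and 11.22, 11.34 and 11.39 with NTX-301. These groups overlapped and neither difference passed (-0.05 with DAC, -0.11 with NTX-301, adjusted p = 0.46 and 0.062).

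Myeloid markers rose beside SAMHD1 in MOLM-13 with DAC. Of 8 markers, CSF3R, ITGAM, LYZ, MPO and SPI1 were called higher with DAC and none lower. Over all genes 15.4% rose and 21.2% fell. The log2 of the summed linear level of the 8 ran from 17.19 to 17.23 in DMSO and from 17.76 to 17.84 with DAC. With NTX-301 4 rose and 1, MPO, fell (-0.09, but 0.01 after quantile normalization), where 20.3% of all genes rose and 24.8% fell. The sum ran from 17.28 to 17.34, and SAMHD1 was not called with NTX-301 (0.0015). In HL-60, where SAMHD1 was not called, 1 marker rose and 3 fell with DAC, and 2 rose and 4 fell with NTX-301. There 24.2% and 37.4% of all genes were called. In HL-60 after quantile normalization, 2 rose and 2 fell with each drug. The falls lost there with NTX-301 were LYZ (-0.04) and MPO (-3.6e-15). That method gives a gene of unchanged rank the same value in each sample, so it could not test the MPO fall. The part of these marker shifts in the SAMHD1 result was not tested. SAMHD1 shares exonic bases with TLDC2 on the opposite strand, which was not listed in either line.

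DCTPP1 (NCBI Gene 79077), a pyrophosphatase that hydrolyses deoxycytidine triphosphate and its modified forms, stood in 3 groups that did not overlap in either line. In MOLM-13 it read 11.64, 11.64 and 11.62 in DMSO, 11.41, 11.46 and 11.28 with DAC, and 11.17, 11.21 and 11.20 with NTX-301. In HL-60 the values were 11.69, 11.67 and 11.77 in DMSO, 11.62, 11.63 and 11.62 with DAC, and 11.44, 11.53 and 11.54 with NTX-301. In each line DMSO was highest and NTX-301 lowest. With NTX-301 it fell by 26.4% on the deposited scale in MOLM-13 (-0.44 ± 0.040 SE, limma adjusted p = 5.9e-06). The difference was -0.20 ± 0.033 in HL-60 (SE, limma adjusted p = 0.00021). With DAC it was -0.25 ± 0.040 in MOLM-13 (limma adjusted p = 0.00043), and the -0.09 in HL-60 did not pass (adjusted p = 0.068). Exons of DCTPP1 overlap ZNF771 on the opposite strand, and whether strand was used in counting is not given in the sources used here.

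Thymidylate synthase rose in HL-60 with both drugs and was not called in MOLM-13. TYMS (NCBI Gene 7298) methylates deoxyuridine monophosphate to thymidine monophosphate and so uses the product of DCTD. In HL-60 it read 13.66, 13.65 and 13.56 in DMSO, 13.85, 13.80 and 13.86 with DAC, and 14.014, 14.015 and 14.002 with NTX-301. The 3 groups stood apart in that order. The rise was 15.7% on the deposited scale with DAC (log2 difference 0.21 ± 0.026 SE, limma adjusted p = 5.2e-05) and 30.5% with NTX-301 (0.38 ± 0.026, limma adjusted p = 6.4e-08). In MOLM-13 it read 13.13, 13.06 and 13.11 in DMSO, 13.04, 13.05 and 13.02 with DAC, and 13.14, 13.07 and 13.03 with NTX-301. Neither difference passed there (-0.06 with DAC, adjusted p = 0.13; -0.02 with NTX-301, 95% confidence interval -0.08 to 0.05). The DAC difference was called with centred samples (-0.10) and turned to 0.020 after quantile normalization. TYMS exons overlap ENOSF1 and TYMSOS on the opposite strand; ENOSF1, looked at after the values were seen, was not called in any comparison (0.0089 and -0.04 in HL-60, 0.07 and 0.06 in MOLM-13, with DAC and NTX-301).

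Genes of DNA replication, which cells express in S phase as they do TYMS, moved as follows. Of 20 such genes, 3 rose and 2 fell with DAC in HL-60, and 13 rose with none falling with NTX-301, where 13.9% and 19% of genes averaging 10 or more rose. In MOLM-13 none rose and 18 of 20 fell with each drug, with median differences of -0.31 and -0.39, where 39.9% and 45.9% of genes averaging 10 or more fell. After centring or quantile normalization 17 to 20 of them still fell there and none rose. The log2 of their summed linear level in HL-60 spanned 17.82 to 17.85 in DMSO, 17.81 to 17.85 with DAC, and 17.91 to 17.94 with NTX-301. In MOLM-13 it spanned 18.22 to 18.26 in DMSO, 17.91 to 17.96 with DAC, and 17.85 to 17.89 with NTX-301. In HL-60 TYMS rose with NTX-301 as most of these genes did, and it was not called in MOLM-13 while they fell. The part of this shift in the members' results was not tested.

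Set against each other in HL-60, NTX-301 gave more TYMS and less CMPK1 and DCTPP1 than DAC. The log2 differences of NTX-301 from DAC were 0.17 ± 0.026 for TYMS (limma adjusted p = 0.00016), -0.19 ± 0.025 for CMPK1 (7.3e-05) and -0.12 ± 0.033 for DCTPP1 (0.015). The DCTPP1 call was lost without NTX-301 replicate 1 (-0.08). These were 3 of 9 members, where 30.4% of all genes and 45% of those averaging 10 or more were called, and the drug groups did not overlap for 6 of 9 members, against 44.4% of all genes. With centred samples the split over all genes moved from 2622 higher and 2563 lower to 1818 and 4860, and SLC29A1, SLC29A2 and NME1 joined the members called lower. For DCK the difference was -0.04 with an interval of -0.09 to 0.01, and for SAMHD1 -0.06 with an interval of -0.16 to 0.03.

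In MOLM-13 the calls between the drugs were SAMHD1, DCTPP1 and SLC29A1, all lower with NTX-301 than with DAC. These were 3 of 10 members, in a comparison where 7.42% of all genes were called and 12.2% of those averaging 10 or more. The difference was -0.22 ± 0.027 for SAMHD1 (SE, limma adjusted p = 0.0014), -0.19 ± 0.040 for DCTPP1 (0.016) and -0.18 ± 0.043 for SLC29A1 (0.031). The SAMHD1 call held in every alternative. The DCTPP1 call was lost without DAC replicate 1 or without any of the 3 NTX-301 replicates (-0.18 to -0.20), and that of SLC29A1 after quantile normalization (-0.17), without the mean-variance trend, and without DAC replicate 2 or 3 or NTX-301 replicate 2 or 3 (-0.14 to -0.18). Without NTX-301 replicate 2 or replicate 3, SAMHD1 alone was called among the members, and without DAC replicate 1 or either of those samples the count over all genes went from 1297 to 767, 479 and 462. DCK did not differ detectably between the drugs (-0.03, interval -0.11 to 0.06), nor did TYMS (0.04, -0.02 to 0.11). The 7 members whose drug groups did not overlap compare with 27.3% of all genes.

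**Figure D3:**
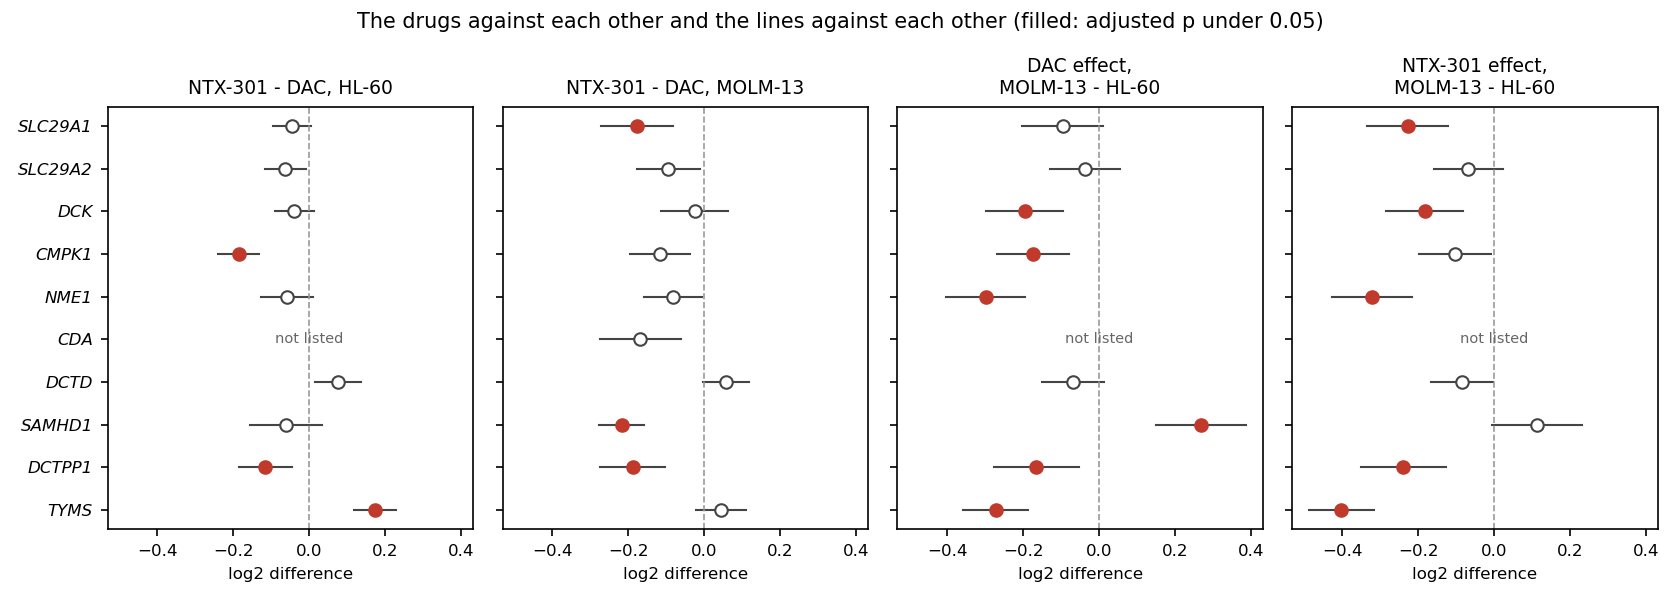
Differences of the 2 drugs from each other within each line (left pair) and differences of a drug effect between the lines (right pair) for the members, in log2 units on the horizontal axis. Points are limma estimates, bars are 95% confidence intervals and filled points passed an adjusted p of 0.05; SAMHD1 lies to the left in the drug comparison of MOLM-13 (-0.22) and to the right in the line comparison of the DAC effect (0.27).

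The effect of DAC differed between the lines for 6 of 9 members, tested by subtracting the HL-60 effect from the MOLM-13 effect over 15474 genes, of which 30% were called; among genes averaging 10 or more, 30.5% were lower in MOLM-13. It was lower in MOLM-13 for NME1 (-0.30 ± 0.050), TYMS (-0.27 ± 0.041), DCK (-0.20 ± 0.048), CMPK1 (-0.17 ± 0.045) and DCTPP1 (-0.17 ± 0.053), and higher for SAMHD1 (0.27 ± 0.056), with limma adjusted p from 5.0e-05 to 0.024. For CMPK1 and DCTPP1 the call depended on the settings: after quantile normalization they stood at -0.08 and -0.13 and did not pass. DCTPP1 was also lost without HL-60 DMSO replicate 1 or 2 or MOLM-13 DAC replicate 3. With centred samples the calls over all genes moved from 1871 higher and 2767 lower to 1359 and 4382.

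The effect of NTX-301 differed for 5 of 9 members, where 40% of all genes were called, and 35.5% of those averaging 10 or more were lower in MOLM-13. All 5 were lower in MOLM-13: TYMS at -0.40 ± 0.041, NME1 at -0.32 ± 0.050, DCTPP1 at -0.24 ± 0.053, SLC29A1 at -0.23 ± 0.051 and DCK at -0.18 ± 0.048 (SE, limma adjusted p from 3.0e-07 to 0.0054). The SAMHD1 difference of 0.11 did not pass (adjusted p = 0.12). It was called after quantile normalization (0.19) and without HL-60 DMSO replicate 3 (0.16) or HL-60 NTX-301 replicate 3 (0.15), and stood at 0.066 without HL-60 NTX-301 replicate 1. DCK, NME1, TYMS and DCTPP1 were called lower in MOLM-13 than in HL-60 for both drugs, comparisons that share the DMSO samples. The lines differ in stated concentration and appear to have been normalized apart, and these cannot be told apart from the line.

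Within a sample the log2 value of SAMHD1 was subtracted from that of DCK, a difference chosen after the values were seen and given with no test. Since levels are not per length, its size and sign carry no meaning, and only its shifts between groups of a line are described. In MOLM-13 it was -0.57, -0.54 and -0.58 in DMSO, -0.93, -1.06 and -0.94 with DAC, and -0.80, -0.72 and -0.83 with NTX-301. The 3 groups did not overlap, and DAC samples were the lowest, since DCK fell and SAMHD1 rose there, while with NTX-301 only DCK was called. In HL-60 the difference ran from 0.46 to 0.68 over all 9 samples with the groups overlapping (means 0.52, 0.57 and 0.59 in DMSO, DAC and NTX-301).

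In DMSO the lines themselves differed in several members, described here without a test because they appear to have been normalized apart. The median gene stood 0.16 higher in MOLM-13, and the 5th to 95th percentile of all genes ran from -1.43 to 2.54. SAMHD1 was 1.41 higher in MOLM-13 and SLC29A2 lower (-1.36), the widest gaps among the members. CMPK1 was 0.74 and DCK 0.33 higher in MOLM-13, and SLC29A1 (-0.67) and TYMS (-0.53) were lower there. DCTD, DCTPP1 and NME1 lay within 0.10 of each other between the lines (-0.098, -0.073 and -0.0026). All of these gaps lie inside the range of ordinary genes.

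The wider pathway was followed through 56 genes in 7 lists, of which 45 were tested in HL-60 and 46 in MOLM-13. In HL-60, 3 rose and 10 fell with DAC and 10 rose and 14 fell with NTX-301, where 24.2% and 37.4% of all genes were called. Among HL-60 genes averaging 10 or more, 35.6% and 52.7% were called, so these counts do not stand out. In MOLM-13, 8 rose and 25 fell with DAC and 7 rose and 26 fell with NTX-301, where 36.6% and 45.1% of all genes were called and 39.9% and 45.9% of genes averaging 10 or more fell. The medians were -0.12 and -0.13, against medians near 0 over all genes and -0.06 and -0.07 over genes averaging 10 or more. NTX-301 differed from DAC in 17 of 45 genes in HL-60 (10 higher, 7 lower) and in 6 of 46 in MOLM-13 (1 higher, 5 lower), where 45% and 12.2% of genes averaging 10 or more were called. With centred samples the HL-60 split between the drugs turned to 6 higher and 9 lower.

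Ribonucleotide reductase and CTP synthase supply deoxycytidine triphosphate, the natural competitor of the active drug. RRM2, the small subunit of ribonucleotide reductase, rose in HL-60 by 0.23 with DAC and 0.34 with NTX-301, and fell in MOLM-13 by 0.21 and 0.15 (limma adjusted p at most 0.00032). The last of these was not called after quantile normalization (-0.02). RRM1, the large subunit, fell in MOLM-13 by 0.26 and 0.31 and rose in HL-60 by 0.20 with NTX-301. The CTP synthases CTPS1 and CTPS2 fell in MOLM-13 with both drugs (-0.16 and -0.15 with DAC, -0.16 and -0.11 with NTX-301) and were not called in HL-60. CTPS1 with NTX-301 (-0.07) did not pass after quantile normalization. RRM2B, the damage-induced subunit, rose with NTX-301 in MOLM-13 by 0.17.

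SHMT2 and MTHFD2, of the folate cycle that supplies TYMS with its cofactor, fell in MOLM-13 with both drugs. SHMT2, a mitochondrial enzyme that loads folate with carbon from serine, fell in MOLM-13 by 0.24 and 0.36. MTHFD2 acts beside it and fell in MOLM-13 by 0.22 and 0.41 and in HL-60 by 0.21 with NTX-301. NTX-301 also gave less of it than DAC in both lines (-0.20 in each).

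Among other kinases, DTYMK, which phosphorylates thymidine monophosphate, fell in MOLM-13 by 0.29 with DAC and 0.36 with NTX-301 and rose in HL-60 by 0.13 with NTX-301. The thymidine kinase TK1 rose in HL-60 by 0.11 and 0.18 and fell in MOLM-13 by 0.13 and 0.19, of which the first was lost after quantile normalization (-0.09). UCK2, the uridine and cytidine kinase that activates ribonucleoside analogues such as azacitidine, fell in both lines, by 0.16 and 0.22 in MOLM-13 and by 0.07 and 0.06 in HL-60, where the DAC call was lost with centring (-0.07) and the NTX-301 call after quantile normalization (-0.02). NME4, the mitochondrial diphosphate kinase, fell in HL-60 by 0.23 and 0.38. In MOLM-13 it was also called lower with NTX-301 than with DMSO, and not called with DAC. The difference of NTX-301 from DAC there was -0.16, also called. DGUOK, the mitochondrial deoxyguanosine kinase, fell by 0.14 with DAC in HL-60, and the mitochondrial TK2 was 0.24 higher with NTX-301 than with DAC there.

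Of 10 other deaminases and nucleotide hydrolases tested in MOLM-13, 7 fell and 0 rose with each drug, where 39.9% and 45.9% of genes averaging 10 or more fell. DUT, which clears deoxyuridine triphosphate, fell there by 0.20 and 0.33, and rose in HL-60 by 0.09 with NTX-301. NUDT1, a hydrolase of oxidized purine triphosphates, fell with both drugs in both lines, by 0.23 and 0.14 in HL-60 and by 0.27 and 0.22 in MOLM-13. ITPA, which removes inosine triphosphate, fell by 0.17 with NTX-301 in each line. NT5C2, a cytosolic nucleotidase, was 0.10 higher with NTX-301 than with DAC in MOLM-13.

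Transport and breakdown lists held most of the rises in MOLM-13: 3 transporters and 4 genes of pyrimidine turnover of 8 with DAC, and 2 and 4 of 7 with NTX-301. The 8 and 7 were of 46 genes tested, where 15.4% and 20.3% of all genes rose. After quantile normalization the transporter SLC29A3 no longer passed with either drug (0.08 with each). UPP1, of pyrimidine turnover, was likewise lost in MOLM-13 with NTX-301 (0.13). The exporter ABCC10 rose there by 0.20 with DAC and 0.21 with NTX-301, and ABCC5, an exporter of nucleotide analogues, rose by 0.16 with DAC and fell by 0.10 with DAC in HL-60. The concentrative carrier SLC28A3, not listed for MOLM-13, fell by 0.09 with NTX-301 in HL-60. TYMP, which cleaves thymidine, rose in MOLM-13 by 0.53 with DAC and 0.14 with NTX-301, with -0.39 between NTX-301 and DAC, and SAMHD1 likewise read higher with DAC than with NTX-301. UPB1, the last enzyme of pyrimidine breakdown, rose in MOLM-13 by 0.25 and 0.38 and in HL-60 by 0.14 with NTX-301. Its HL-60 level was low, averaging 4.73 in DMSO and 4.86 with NTX-301, so that difference may be compressed. UMPS, of pyrimidine synthesis, fell with both drugs in both lines, by 0.16 and 0.11 in HL-60 and by 0.24 and 0.28 in MOLM-13.

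**Figure D4:**
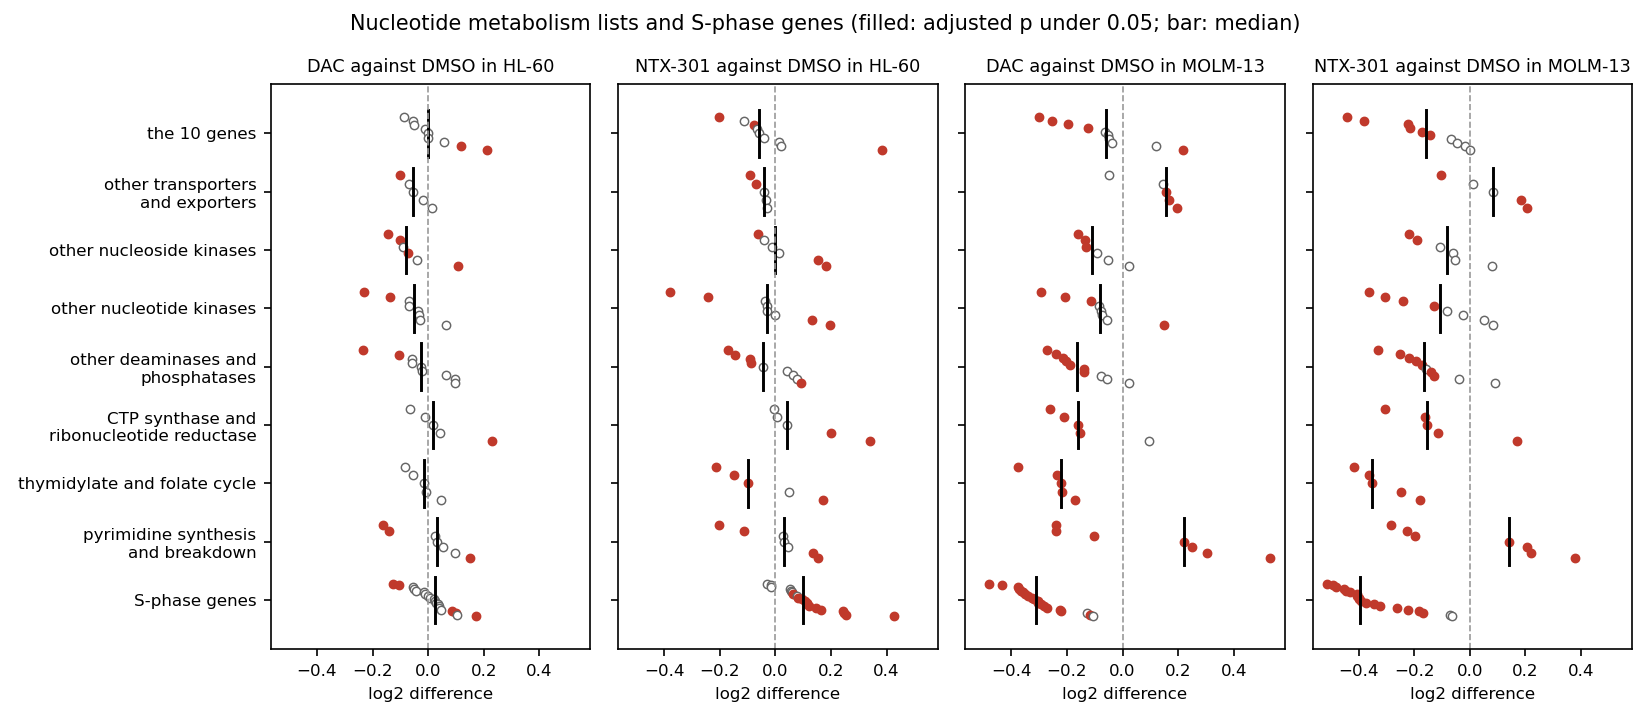
Log2 difference from DMSO (horizontal axis) of every tested gene in the 10 members, the 7 wider lists and the S-phase genes, in the 4 comparisons of a drug with DMSO. Each point is a gene, filled where its adjusted p was under 0.05, and the vertical bar is the median of the list; S-phase genes lie to the left in MOLM-13 (medians -0.31 and -0.39) and around or above 0 in HL-60 (0.02 and 0.10).

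Genes with a pattern like that of DCK, SAMHD1 and TYMS were ranked by Pearson's r over the 18 samples after the mean of each line was removed, among 11692 genes with a mean of at least 6 in both lines. The 18 points share their libraries and scaling, and r is a description. The genes were picked by likeness in these same samples, so a direction shared with the member follows from the choice and is no separate result. TCEA1 (0.96), ZDHHC20 (0.95) and MANEA (0.95) were most like DCK, and all 3 fell in MOLM-13 with both drugs. MPO (0.85), UBFD1 (0.83) and MNDA (0.82) were most like SAMHD1, and MPO and MNDA rose in MOLM-13 with DAC by 0.72 and 0.45. UBFD1 was not called there (0.10, limma adjusted p = 0.054). In HL-60, where SAMHD1 was not called, MPO was called lower with DAC (-0.07) and NTX-301 (-0.35). Quantile normalization set the NTX-301 difference to -3.6e-15, since it gives a gene of unchanged rank the same value in each sample. It therefore could not test that call. ECE1 (0.97), GLUL (0.94) and E2F7 (0.94) were most like TYMS, and all 3 rose in HL-60 with both drugs, by 0.42, 0.50 and 0.29 with DAC and by 0.66, 0.72 and 0.50 with NTX-301. Among the members, DCTPP1 was most like NME1 (0.87) and SLC29A2 (0.81), and DCK like NME1 (0.80), while SAMHD1 ran against DCTD (-0.61).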

How the data were processed

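Each of the 18 samples had 1 table of normalized log2 values per gene, which the authors deposited. The submitters' processing notes list FastQC, Trimmomatic 0.38, HISAT2, StringTie and the build hg19, with no role or order. The normalization, the annotation and the use of strand are not given in the sources used here. Per the labels' protocols, RNA was isolated with RNeasy and libraries were made with a TruSeq stranded total RNA kit. Samples were grouped by their titles.

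Tests used limma 3.58.1 (R 4.3.3; lmFit, eBayes with trend, two-sided, Benjamini-Hochberg) on the deposited log2 values. The 9 samples of a line shared 1 fit (6 residual degrees of freedom), and line differences came from 1 fit of all 18 (12 degrees of freedom). Genes were tested where 3 or more samples reached a linear value of 1. The steps were tested on simulated data. The alternatives were centring, quantile normalization, no trend, no filter, a mean of at least 5, a pseudocount of 1, only the groups compared, a replicate block and leaving out each replicate.

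The members and lists were chosen with earlier results of these data known. Named besides the members were, from each list and comparison within a line, the gene with the lowest adjusted p under 0.05, and for DCK, SAMHD1 and TYMS the 3 genes of highest likeness. CTPS1, CTPS2, RRM2B, NME2, SLC29A3 and UPP1, further comparisons of named genes and the genes that overlap a member were added after the values were seen. Promoter sequences are RefSeq's (GRCh38.p14), and overlaps were read from GENCODE 29; SLC29A1 and DCTD had 2 promoter windows, of which the first was used. Some items are not reported here.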

Additional observations from a re-analysis of the deposited data

Results flagged for a closer look

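A drug effect differed between the lines for 6 of 9 members with DAC and 5 of 9 with NTX-301. The test was limma's, of the difference in the fit of all 18 samples (effect in MOLM-13 minus effect in HL-60). Of all genes tested 30% and 40% were called, and of those averaging 10 or more in both lines 42.1% and 53%. For DAC the values were -0.20 for DCK, -0.30 for NME1, -0.27 for TYMS, 0.27 for SAMHD1, -0.17 for CMPK1 and -0.17 for DCTPP1. For NTX-301 they were -0.18 for DCK, -0.23 for SLC29A1, -0.32 for NME1, -0.40 for TYMS and -0.24 for DCTPP1. The lines also differ in stated concentration and appear to have been normalized apart, which cannot be told apart from the line.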

How the results depend on the processing

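Of 75 member values (each member in each comparison), 42 kept their call and direction in every alternative. Of the 33 called values, 26 did so and 0 reversed. The number of members called with NTX-301 against DMSO in HL-60 went from 3 to 6 with centred samples and to 5 with genes of a mean of at least 5. Against DAC in HL-60 it went from 3 to 6 with centring, and in MOLM-13 from 3 to 5 with the mean of at least 5, and to between 1 and 4 when a replicate was left out. The replicate block moved the count of all genes called between the drugs in MOLM-13 from 1297 to 817, and leaving out a replicate gave 462 to 1322. The block also added CDA in MOLM-13 (0.12 with DAC against DMSO, -0.17 between the drugs) and removed SLC29A1 between the drugs (-0.18), and changed no other call of a member. Same-numbered samples correlated between -0.06 and 0.13 in HL-60 and between -0.17 and 0.11 in MOLM-13, so the numbers were not taken to pair samples.

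The reversed values were all of differences not called in the main test. Quantile normalization gave 0.0031 for SLC29A2 with DAC in HL-60, and in MOLM-13 0.015 for SLC29A1, 0.053 for CMPK1 and 0.020 for TYMS with DAC and 0.079 for TYMS with NTX-301. Centring gave -0.016 for SLC29A1 and -0.0091 for DCTD with NTX-301 in HL-60, and -0.029 for SAMHD1 with NTX-301 in MOLM-13. Leaving out a replicate in HL-60 gave -0.013 to 0.021 for DCK, -0.023 to 0.0063 for SLC29A2 and -0.035 to 0.034 for NME1 with DAC, and -0.0075 to 0.022 for SLC29A1 and -0.00090 to 0.036 for DCTD with NTX-301. In MOLM-13 it gave -0.021 to 0.016 for SAMHD1 and -0.049 to 0.0057 for TYMS with NTX-301, and -0.067 to 0.013 for DCK between the drugs. The cause of these changes was not tested. The depth of the libraries is unknown, so its limit on CDA, the lowest member, could not be set.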
